A study of Mus musculus with 2 samples.

Results

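Post-capillary venules of the gut wall hold endothelial cells that display adhesion molecules for passing leukocytes. This report describes a set of venous cells, called here the selectin/Icam1-high venous cells. Neither their position in the vessels nor their adhesion proteins were measured. The set held 358 of the 531 venous cells found among 7045 cells of the mouse ileum. These cells numbered 59 of 97 in library 1 and 299 of 434 in library 2. They were chosen from their own unique molecular identifiers (UMIs, 1 for each captured transcript), as cells in which Selp, Sele and Icam1 together had more UMIs than Vwf, Adgrg6 and Cldn5 together. A venous cell had at least 4 UMIs of Ackr1, Selp and Madcam1 in sum, at least 5 of the blood endothelial genes Flt1, Cd34, Plvap and Esam, and at most 2 of the lymphatic genes Mmrn1, Lyve1, Reln and Prox1. The 38 and 135 venous cells on the other side of the balance are the other venous cells, and the 738 and 4314 blood endothelial cells below the venous minimum serve as a second comparison.

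Selp encodes P-selectin and Sele encodes E-selectin, which slow leukocytes by letting them roll along the vessel wall. Icam1 encodes the ligand of leukocyte integrins that holds them firmly, and Madcam1, the mucosal addressin, binds the gut-homing integrin of lymphocytes. In endothelium, cytokines such as TNF and interleukin 1 are known to switch on Sele, Icam1, chemokines and a set of feedback inhibitors through the transcription factor family NF-kappaB. Ackr1 marks venules and carries chemokines across them.

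Both libraries were made by droplet 3' single-cell RNA sequencing from ileal endothelium of wild-type C57Bl/6 male mice, 8 weeks old. CD31-positive cells free of EpCAM and CD45 were sorted as PDPN-negative blood and PDPN-positive lymphatic endothelium, and no label says which gate a given cell passed. The 2 libraries form 1 group, and the labels name no treatment or inflammation. Nothing in the labels says whether each library had its own mice. The p-values therefore measure only how far class differences vary between these libraries, with the spread pooled over classes and genes. That spread may be technical.

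Library 1 held 1026 barcodes and 3806199 UMIs, and library 2 held 6302 barcodes and 26645476 UMIs. The selectin/Icam1-high venous cells had medians of 5846 and 6345 UMIs per cell, the other venous cells 4608 and 6274, and the non-venous cells 3396.5 and 3987.5. Median mitochondrial shares were 3.89 and 3.73%, 3.79 and 3.72%, and 2.202 and 2.53% in the same order. The libraries shared 2 barcodes, 1 of them a venous cell in 1 library.

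One cell set library 2 apart. Among its 299 selectin/Icam1-high venous cells, 5973 UMIs of the immunoglobulin light chain gene Igkc were counted, and 5920 of them (99.1%) lay in a single cell. The summed level of 20 leukocyte markers in the class was 3504 CPM (UMIs relative to all UMIs of the class, the usual scaling of counts) in library 2, of which Igkc gave 2943 and Jchain 522 CPM, against 46.0 in its other venous cells and 5.98 and 5.05 in the 2 venous classes of library 1. Ptprc, the gene of CD45, stood at 0 and 3.45 CPM in the class. Of the 20 markers, 8 had no UMI in the class in library 2 and 18 had none in library 1. The 12 pericyte and smooth muscle markers summed to 368 CPM in the class in library 2, led by Acta2 with 123 CPM, and to 42.6 CPM in the other venous cells. In library 1 they summed to 17.9 and 95.9 CPM, and 10 and 11 of the 12 had no UMI. The capillary genes Rgcc and Gpihbp1 had no UMI in either venous class of library 1 and stood at 61.6 and 66.5 CPM in the selectin/Icam1-high cells of library 2, close to the 77.1 and 92.0 CPM of its other venous cells. Cells with 3 or more UMIs of the other cell types' markers numbered 0 of 59 and 41 of 299 in the class, and 1 of 38 and 14 of 135 among other venous cells, and the counts over all genes and for the NF-kappaB list are also given without them. Igkc, Jchain and the pericyte or muscle genes Notch3, Acta2, Myh11 and Des were among the genes higher in the class than in other venous cells. Of 94 named genes that passed in that comparison, 1 no longer passed without the cells carrying 3 or more such UMIs, and 0 changed sign. The part of other cell types' transcripts in the other results was not tested beyond that.

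The genes of the rule gave the class its outline, and since they chose the cells they are described without a test. On GRCm38, Selp lies on chromosome 1 from 164115264 to 164150026, Sele on chromosome 1 from 164048234 to 164057677 and Icam1 on chromosome 9 from 21015985 to 21028817, all on the plus strand. Selp stood at 7494 CPM in the selectin/Icam1-high cells of library 1 and 5434 CPM in those of library 2, against 1388 and 651 CPM in other venous cells and 5.85 and 6.93 CPM in non-venous cells. Sele stood at 831 and 1025 CPM, against 141 and 65.6 CPM in other venous cells, and had 0 UMIs in the non-venous cells of library 1 (an upper 95% Poisson limit of 1.35 CPM) and 0.853 CPM in those of library 2. Icam1 stood at 4587 and 3496 CPM, against 1332 and 904 CPM in other venous cells. It was the only one of these 3 with a sizeable level in non-venous cells, 336 and 324 CPM. Selp counts toward the venous minimum, so the rule itself kept Selp low in non-venous cells.

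The other venous and vein-side genes of the rule differed less between the venous classes than these 3. Ackr1 was 2446 and 2495 CPM in the class and 1746 and 1345 CPM in other venous cells, higher in both libraries. Madcam1 was 1510 and 1464 CPM in the class and 2028 and 1335 CPM in other venous cells, so that library 1 and library 2 differed in direction. Adgrg6, an adhesion G protein-coupled receptor gene summed on the vein side, was similar in the 2 venous classes, 894 and 584 CPM against 959 and 664 CPM. Cldn5, the main endothelial claudin of tight junctions, was 1645 and 1020 CPM against 2770 and 2130 CPM, and Vwf, the clotting protein stored with P-selectin, was 1352 and 1134 CPM against 1675 and 1690 CPM. Prox1, the lymphatic regulator that the rule allowed at a few UMIs, reached 20.9 and 21.7 CPM in the class and 0 and 3.45 CPM in other venous cells. The 5 genes proposed as markers of these cells were Selp, Sele, Icam1, Ackr1 and Madcam1. All 5 are summed by the rule, so their detection in the class followed largely from the choice of cells. Madcam1 lay at about the level of the other venous cells. Sele had a UMI in 55.9 and 73.2% of the cells of the class.

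**Figure D1:**
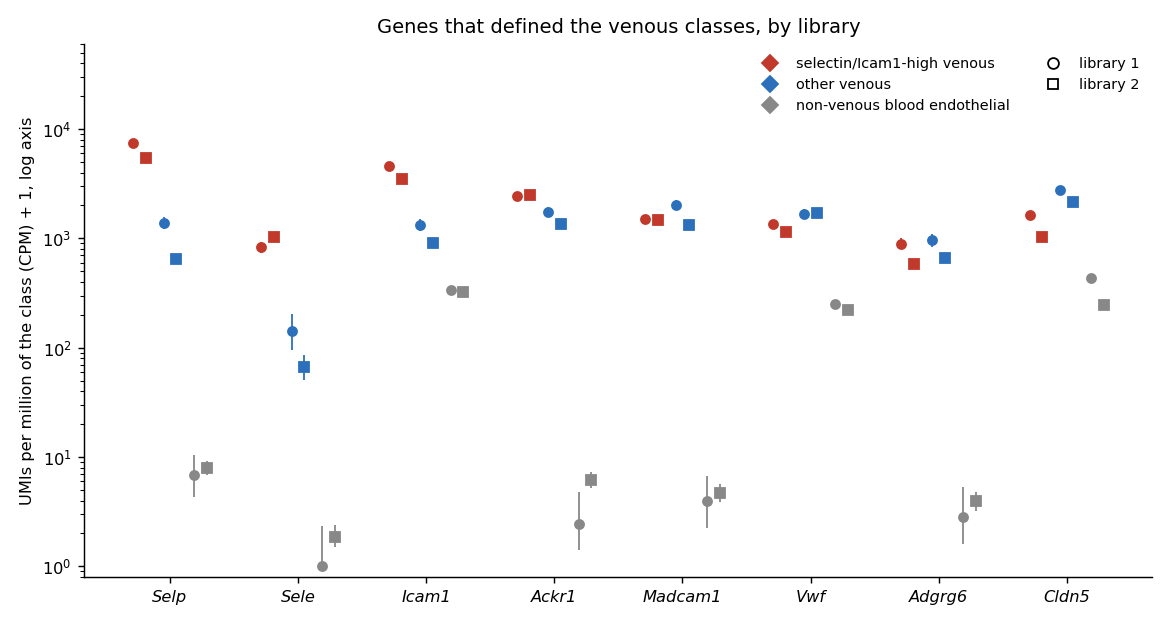
CPM of each class, plus 1, on a log axis for 8 genes that the rule summed, with 95% Poisson intervals (counting error only); circles are library 1, squares library 2, and colours are the 3 classes. Selp, Sele and Icam1 separate the 2 venous classes in both libraries, while Adgrg6 has overlapping intervals in both libraries and Madcam1 differs in direction between libraries.

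The class had no sharp edge. Within a library, 51 of 97 and 253 of 434 venous cells led by 10 or more UMIs on the selectin/Icam1 side, and 24 and 81 trailed by 10 or more. Cells within 2 UMIs of a tie numbered 7 (7.22%) and 39 (8.99%). Just inside the limit, ahead by 1 to 3 UMIs, lay 2 and 19 cells with medians of 23 and 15 selectin/Icam1-side UMIs and 20 and 14 vein-side UMIs. Just outside, tied cells numbered 4 and 6 (medians of 9 and 7.5 UMIs on each side), and 3 and 18 trailed by 1 to 3. In cells thinned to 2000 UMIs, the rule kept 48 of 54 and 249 of 287 selectin/Icam1-high cells that were deep enough, and 31 of 35 and 87 of 131 other venous cells. In library 2, 32 of these other venous cells fell below the venous minimum and 9 changed sides.

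The class made up 60.8% of the venous cells of library 1 (95% Clopper-Pearson interval 50.4 to 70.6%) and 68.9% of those of library 2 (64.3 to 73.2%), intervals that overlap and cover counting error only. This was 64.9 ± 5.71% (SD, n = 2). Without Icam1 on the selectin side it was 46.4 and 52.3%. Of all cells that passed the filters, the class was 6.03% in library 1 (4.62 to 7.71%) and 4.93% in library 2 (4.40 to 5.50%), and the sort gates can set these shares.

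Against other venous cells, the class was higher in cytokines and chemokines and in the NF-kappaB family with its feedback inhibitors. JAK, STAT3 and SOCS genes and metallothioneins were also higher. Lower genes included Txnip, Cyr61, Tsc22d3 and the regulators Id2, Id3 and Meox2. Of 9821 genes outside the rule tested with edgeR's quasi-likelihood test on UMIs summed per library and class, with the library as a block, 774 passed an adjusted p of 0.05 (7.88%), 655 higher (6.67%) and 119 lower (1.21%). The libraries shared the direction for 94.4% of the 774 and for 62.4% of everything tested. Without the library block 341 passed (316 higher, 25 lower). Without scaling beyond library size 759 passed in another split, 415 higher and 344 lower. The median over all genes then moved from -0.01 to -0.23 on the log2 scale. CPM values carry no scaling beyond library size, so fitted log2 differences can lie above those of the CPM values. Without the cells carrying 3 or more UMIs of other cell types' markers, 799 passed (661 higher, 138 lower), and without every cell with a UMI of their defining markers 597 passed (527 higher, 70 lower). The classes were cut from the same cells, so genes that vary with the rule's genes were bound to differ, and the p-values are not independent of that choice. When the rule was applied to thinned cells and the UMIs not drawn were tested, 515 passed (452 higher, 63 lower). Since 9 of the 655 higher genes had 0 UMIs and 30 had at most 3 in the other venous cells, folds of the rarest genes are poorly bounded.

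Secreted signals of innate immunity were among the largest increases, below the metallothioneins. Il6, which encodes interleukin 6, stood at 499 and 512 CPM in the class and 35.3 and 32.2 CPM in other venous cells, and both libraries of the class lay above both of the other. The fitted log2 difference was 4.19 ± 0.23 (SE), with an edgeR adjusted p of 7.4e-23. Csf3, the granulocyte colony-stimulating factor, stood at 218 and 417 CPM against 5.05 and 26.5 CPM, a log2 difference of 4.34 ± 0.26 (edgeR adjusted p = 7.92e-21). Cxcl10, a chemokine for activated T cells, stood at 658 and 631 CPM against 141 and 32.2 CPM, with a log2 difference of 3.65 ± 0.46 (edgeR adjusted p = 0.00978). Its 2 other venous values differed widely, and no class values overlapped with them. Cxcl1, a neutrophil chemokine, stood at 164 and 118 CPM against 20.2 and 14.95 CPM, a log2 difference of 3.22 ± 0.31 (edgeR adjusted p = 9.65e-13). Of 13 tested chemokine and cytokine genes 7 rose and none fell, beside 6.67 and 1.21% of all genes. The median log2 difference was 0.97, beside -0.01 over all genes tested. The other 3 that rose were Cxcl9, Cxcl16 and Csf1, at 2.03, 1.74 and 0.97 (Cxcl16 and Csf1 named after their values were seen).

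UMIs of these genes were found in a part of the class, and a cell without a UMI may still express the gene. Il6 had a UMI in 50.8% of the selectin/Icam1-high cells of library 1 (37.5 to 64.1%, exact binomial) and 43.5% of those of library 2 (37.8 to 49.3%), against 7.89 and 8.15% of other venous cells. After thinning to 2000 UMIs, which left out 5 and 12 cells of the class and 3 and 4 other venous cells, the shares were 35.2 and 33.1%, 5.71 and 4.58%, and 7.10 and 7.83% in the deep enough non-venous cells. Csf3 was in 23.7 and 27.1% of the class, 16.7 and 21.95% after thinning, against 2.86 and 0.763% of thinned other venous and 0.645 and 0.828% of thinned non-venous cells. The tenth of cells with most Csf3 UMIs in the class held 74.0 and 77.0% of them. Its 23 UMIs in the other venous cells of library 2 came from 2 cells. Cxcl10 was in 32.2 and 39.1% of the class, 31.5 and 29.6% after thinning, against 5.71 and 3.05% of thinned other venous and 1.77 and 1.08% of thinned non-venous cells. Cxcl1 was less widespread, with thinned shares of 7.41 and 9.41% against 5.71 and 2.29%, 15.3 and 14.4% against 5.26 and 5.19% before thinning, and 4.03 and 2.99% in thinned non-venous cells. In the class, the tenth of cells with most Cxcl1 UMIs held 94.5 and 94.6% of them. In library 1, 1 cell held 39 of the 55 Cxcl1 UMIs of the class. After thinning, the intervals of the Cxcl1 shares in the venous classes overlapped in both libraries. Before thinning they overlapped in library 1 and not in library 2 (10.6 to 18.9% against 2.11 to 10.4%).

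**Figure D2:**
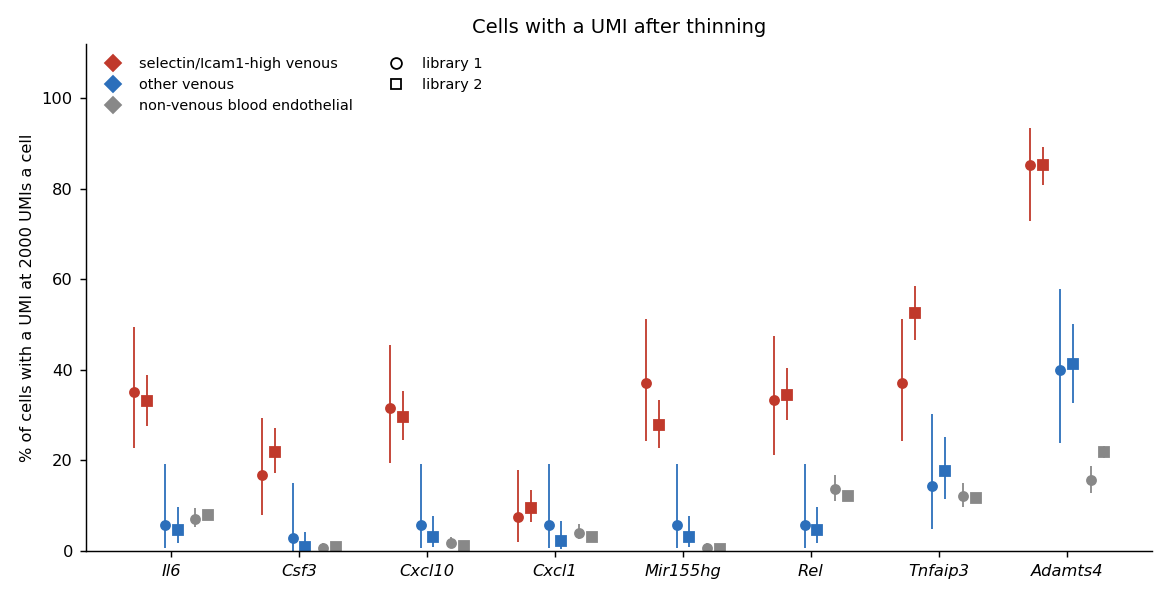
Percentage of cells with at least 1 UMI of each of 8 genes after every cell was thinned to 2000 UMIs, with exact 95% binomial intervals; circles are library 1, squares library 2, and colours are the 3 classes. Il6 lies at 35.2 and 33.1% in the selectin/Icam1-high cells and Adamts4 at 85.2 and 85.4%, while the intervals of Cxcl1 in the 2 venous classes overlap in both libraries.

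The NF-kappaB family and its feedback genes rose nearly as a whole. Of 27 tested members 24 were higher and none lower, beside 6.67 and 1.21% of all genes. The median log2 difference was 1.33, beside -0.01 over all genes. The count was 20 without the library block, 20 without scaling, 24 without the cells carrying 3 or more UMIs of other cell types, 23 on the UMIs not drawn, and between 16 and 25 over all settings tried. The list was drawn up with earlier results of these data known, so its direction is not independent evidence. Nfkbia, whose protein holds NF-kappaB in the cytoplasm and is itself an NF-kappaB target, stood at 3403 and 3041 CPM in the class and 1488 and 1115 CPM in other venous cells, a log2 difference of 1.53 ± 0.13 (edgeR adjusted p = 7.64e-15). Tnfaip3, which encodes the ubiquitin-editing inhibitor A20, stood at 314 and 554 CPM against 60.5 and 72.5 CPM, a log2 difference of 2.98 ± 0.21 (edgeR adjusted p = 2.63e-16). Rel, the c-Rel subunit, stood at 284 and 236 CPM against 55.5 and 33.4 CPM, a log2 difference of 2.92 ± 0.23 (edgeR adjusted p = 1.33e-15). For these 3 genes both libraries of the class lay above both of the other venous cells. Tnfaip2 rose by 2.74 ± 0.23 on the log2 scale, and Mir155hg, the host transcript of the inflammatory microRNA miR-155, by 3.58 ± 0.30. Mir155hg stood at 230 and 157 CPM in the class and 15.1 and 17.3 CPM in other venous cells. Nfkbie, Tnfaip8 and Ifngr2 were the 3 list members that did not pass, at 1.25, -0.21 and -0.06 on the log2 scale (named after their values were seen).

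Upstream DNA of Sele, Icam1 and 3 of the risen genes is shown because NF-kappaB is known to bind such short elements in these promoters. Each line gives the 250 bases before the gene's start on its own strand, from RefSeq on GRCm38.p6. Capitals mark the letters GGANNTTCC or the published NF-kappaB consensus decamer on either strand. Both can match the same bases. Sele (chr1:164047984-164048233, plus strand), Icam1 (chr9:21015690-21015939, plus), Il6 (chr5:30012864-30013113, plus), Cxcl1 (chr5:90890995-90891244, plus) and Cxcl10 (chr5:92348890-92349139, minus) read as follows.
Sele: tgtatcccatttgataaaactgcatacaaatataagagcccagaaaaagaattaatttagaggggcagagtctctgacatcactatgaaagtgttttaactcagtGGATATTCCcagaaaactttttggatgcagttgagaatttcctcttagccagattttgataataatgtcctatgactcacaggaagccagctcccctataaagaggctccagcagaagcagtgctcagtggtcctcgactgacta
Icam1: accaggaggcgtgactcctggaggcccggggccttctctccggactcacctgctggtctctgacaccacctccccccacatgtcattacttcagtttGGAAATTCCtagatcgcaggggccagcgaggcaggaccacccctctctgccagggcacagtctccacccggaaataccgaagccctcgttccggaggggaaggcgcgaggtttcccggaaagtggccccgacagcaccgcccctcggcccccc
Il6: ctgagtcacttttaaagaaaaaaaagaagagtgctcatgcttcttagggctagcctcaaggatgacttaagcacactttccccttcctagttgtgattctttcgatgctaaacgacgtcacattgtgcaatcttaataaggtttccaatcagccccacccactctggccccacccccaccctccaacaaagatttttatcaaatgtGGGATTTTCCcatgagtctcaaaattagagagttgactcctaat
Cxcl1: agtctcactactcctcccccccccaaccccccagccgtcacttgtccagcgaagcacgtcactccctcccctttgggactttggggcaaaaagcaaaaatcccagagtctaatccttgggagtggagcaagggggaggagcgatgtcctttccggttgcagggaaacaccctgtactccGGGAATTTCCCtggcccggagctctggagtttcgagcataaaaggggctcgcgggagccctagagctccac
Cxcl10: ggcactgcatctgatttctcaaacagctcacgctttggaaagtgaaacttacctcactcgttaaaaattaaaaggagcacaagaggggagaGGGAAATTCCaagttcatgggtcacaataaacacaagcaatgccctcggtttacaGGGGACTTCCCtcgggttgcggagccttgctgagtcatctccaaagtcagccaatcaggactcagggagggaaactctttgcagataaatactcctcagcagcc
The 9 letters were chosen after reading the Sele and Icam1 windows, so their presence there is a description. They lie from position -145 in Sele and -153 in Icam1, counted from RefSeq's start, the base after each window. For Icam1 this start lies upstream of the one given above, which is from the GENCODE annotation. The decamer matches start at -159 and -104 in Cxcl10, at -71 in Cxcl1 and at -44 in Il6, among others that overlap them. In windows of 300 bases (250 before and 50 after the start), 4.26% of 32851 RefSeq promoters hold GGANNTTCC and 8.46% the decamer, or 4.86 and 9.55% of 27025 genes. Of the 14 genes with the largest increases 10 had a window, of which 4 held GGANNTTCC and 5 the decamer (Cxcl1, Cxcl10, Il6, Rel and Tnfaip3). Of the 14 with the largest decreases 10 had a window, of which 0 held GGANNTTCC and 1 the decamer (Tsc22d3). All 3 selectin/Icam1-side genes of the rule had a window. Of these 0 held the decamer and 2 held GGANNTTCC (Icam1 and Sele), so Selp held neither. Of the 3 vein-side genes 2 had a window, and 0 held either motif. A match shows only that these letters are present.

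Genes of a list of JAK, STAT3 and SOCS genes were also higher. STAT3 is a transcription factor downstream of interleukin 6 receptors, and its part in these differences was not tested. Of 18 tested members of the list 13 rose and none fell, beside 6.67 and 1.21% of all genes. The median log2 difference was 1.05. The count was 9 without the library block. Socs3, the feedback inhibitor of that pathway, stood at 2410 and 1863 CPM against 1221 and 955 CPM, a log2 difference of 1.18 ± 0.13 (edgeR adjusted p = 2.99e-10). Jak2 stood at 239 and 294 CPM against 65.6 and 88.6 CPM, a log2 difference of 1.97 ± 0.20. Pim1 rose by 1.70 ± 0.19 and Cish by 1.91 ± 0.24. In all 4 genes the classes did not overlap between libraries. Of 29 cytokine receptor and adaptor genes 7 rose and none fell, beside 6.67 and 1.21% of all genes, among them Osmr, the oncostatin M receptor, by 1.17 ± 0.16, Csf2rb and Csf2rb2 by 1.12 ± 0.19 and 1.08 ± 0.21, and Tnfrsf11a, the receptor RANK, by 1.60 ± 0.22. Without the library block 3 of the 29 passed. The fitted median log2 difference of the 29 was 0.32, and their library medians from CPM + 1 were 0.11 and 0.004.

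Most interferon response genes (26 of 30) had a positive log2 difference, though not all passed. Of 30 tested members 13 rose, none fell and 17 did not pass, where 6.67% of all genes rose and 1.21% fell. The median log2 difference was 0.79. The immunity-related GTPase gene Iigp1 stood at 3729 and 3377 CPM in the class and 1110 and 1281 CPM in other venous cells, a log2 difference of 1.76 ± 0.13 (edgeR adjusted p = 5.48e-17). Gbp5 and Gbp2, guanylate-binding proteins of the same response, rose by 2.05 ± 0.19 and 1.65 ± 0.19, and Ifit1 by 1.83 ± 0.22. Reads of Gbp and MHC copies can be split between near-identical genes, so these values are uncertain. Of 15 MHC class I genes 5 rose (6.67% of all genes did), led by Tap1, the peptide transporter, at 0.95 ± 0.18, but only 1 without the library block. None of 6 MHC class II genes passed (Cd74 at 0.30 ± 0.19, edgeR adjusted p = 0.451), where 7.88% of all genes did. With 6 genes, this count is near that share. Against non-venous cells, 5 of the 6 were higher in the class, beside 14.8% of all genes.

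Adhesion genes and genes of high endothelial venules were called about as often as all genes tested (1 of 17 and 1 of 15, beside 7.88%). Genes of the rule, Selp, Sele and Icam1 among them, are not in these counts. Vcam1, the integrin ligand that acts beside Icam1, stood at 616 and 632 CPM in the class, 353 and 326 CPM in other venous cells and was the 1 of 17 adhesion genes to rise, by 1.10 ± 0.16 on the log2 scale (edgeR adjusted p = 2.98e-07). Vcam1 was present in 44.4 and 50.2% of thinned cells of the class 42.9 and 41.2% of thinned other venous cells and 2.26 and 2.06% of thinned non-venous cells. Before thinning the venous shares were 66.1 and 72.9% against 55.3 and 60.7%. None of 15 genes of high endothelial venules, the specialised vessels of lymphoid tissue, rose and 1 fell (Fabp5, -0.64 ± 0.17). Of 30 venous and post-capillary genes 6 rose and 3 fell, beside 6.67 and 1.21% of all genes. Without scaling 4 rose and 6 fell. Ptafr, the receptor of platelet-activating factor, stood at 209 and 172 CPM against 50.5 and 43.7 CPM, a log2 difference of 2.27 ± 0.26 (edgeR adjusted p = 1.1e-08). Gja1, the gap junction protein connexin 43, stood at 760 and 639 CPM against 131 and 97.8 CPM, a log2 difference of 2.88 ± 0.18 (edgeR adjusted p = 3.19e-20).

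Of 32 vein and large vessel matrix genes 7 rose and none fell, beside 6.67 and 1.21% of all genes. Of 20 vasoactive, nitric oxide and prostanoid genes 5 rose and 1 fell. The fitted median log2 differences were 0.01 and 0.22. From CPM + 1, the library medians were -0.04 and -0.15 for the matrix genes and -0.01 and -0.04 for the vasoactive list. Adamts4, an aggrecan- and versican-cleaving protease, stood at 2835 and 2875 CPM against 515 and 366 CPM, a log2 difference of 2.97 ± 0.16 (edgeR adjusted p = 1.19e-20). It was also the most widespread of the genes examined per cell outside the rule, in 85.2 and 85.4% of thinned cells of the class 40.0 and 41.2% of thinned other venous cells and 15.6 and 21.9% of thinned non-venous cells (88.1 and 93.6%, and 47.4 and 52.6% of the venous classes before thinning). Its relatives Adamts9 and Adamts1 rose by 2.23 ± 0.15 and 1.49 ± 0.15. Of 22 coagulation, fibrinolysis and complement genes 8 rose and none fell, beside 6.67 and 1.21% of all genes, among them Procr, the endothelial protein C receptor, by 1.90 ± 0.19, Plaur, the urokinase receptor, by 1.89 ± 0.22, and Thbs1 by 1.23 ± 0.17. The fitted median log2 difference of these 22 genes was 0.31, and their library medians from CPM + 1 were -0.11 and 0.05. Ptgs2, which encodes cyclooxygenase 2, stood at 41.9 and 161 CPM against 0 and 25.3 CPM. Hdc, which makes histamine, stood at 724 and 499 CPM against 651 and 307 CPM, a log2 difference of 0.67 ± 0.16 (edgeR adjusted p = 0.002), and its lowest value in the class lay below the highest in other venous cells.

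The metallothioneins Mt1 and Mt2, small metal-binding proteins, were almost absent from other venous cells. Mt1 stood at 86.7 and 52.2 CPM in the class, with 1 UMI in all other venous cells, a ratio of 61.0 (95% counting interval 10.8 to 2425). Mt2 stood at 68.8 and 58.1 CPM, with 2 UMIs, a ratio of 31.8 (8.65 to 265). Of 17 glycolysis genes 6 rose (3 without scaling, 2 without the block), and none of 21 nuclear genes of oxidative phosphorylation or 10 proliferation genes passed, where 7.88% of all genes did.

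Among the decreases, Txnip, an inhibitor of thioredoxin and of glucose uptake, stood at 161 and 177 CPM in the class and 590 and 752 CPM in other venous cells, a log2 difference of -1.79 ± 0.16 (edgeR adjusted p = 1.1e-13). Cyr61, a matricellular gene, stood at 68.8 and 155 CPM against 378 and 444 CPM, a log2 difference of -1.53 ± 0.18. Tsc22d3, a glucocorticoid-induced gene, stood at 47.8 and 45.3 CPM against 146 and 154 CPM, a log2 difference of -1.50 ± 0.22. In all 3 the values of the class lay below those of other venous cells without overlap. Of 39 endothelial transcription factors 7 rose and 7 fell, beside 6.67 and 1.21% of all genes, with 3 and 12 without scaling. Meox2 fell by 0.92 on the log2 scale, from 202 and 191 CPM in other venous cells to 95.7 and 84.7 CPM, and Id3 by 0.69, whereas Ets1 and Sox7 rose by 1.05 and 1.36. Id2 had a log2 difference of -1.55 ± 0.36 (edgeR adjusted p = 0.0277), with 98.7 and 44.8 CPM against 126 and 219 CPM.

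**Figure D3:**
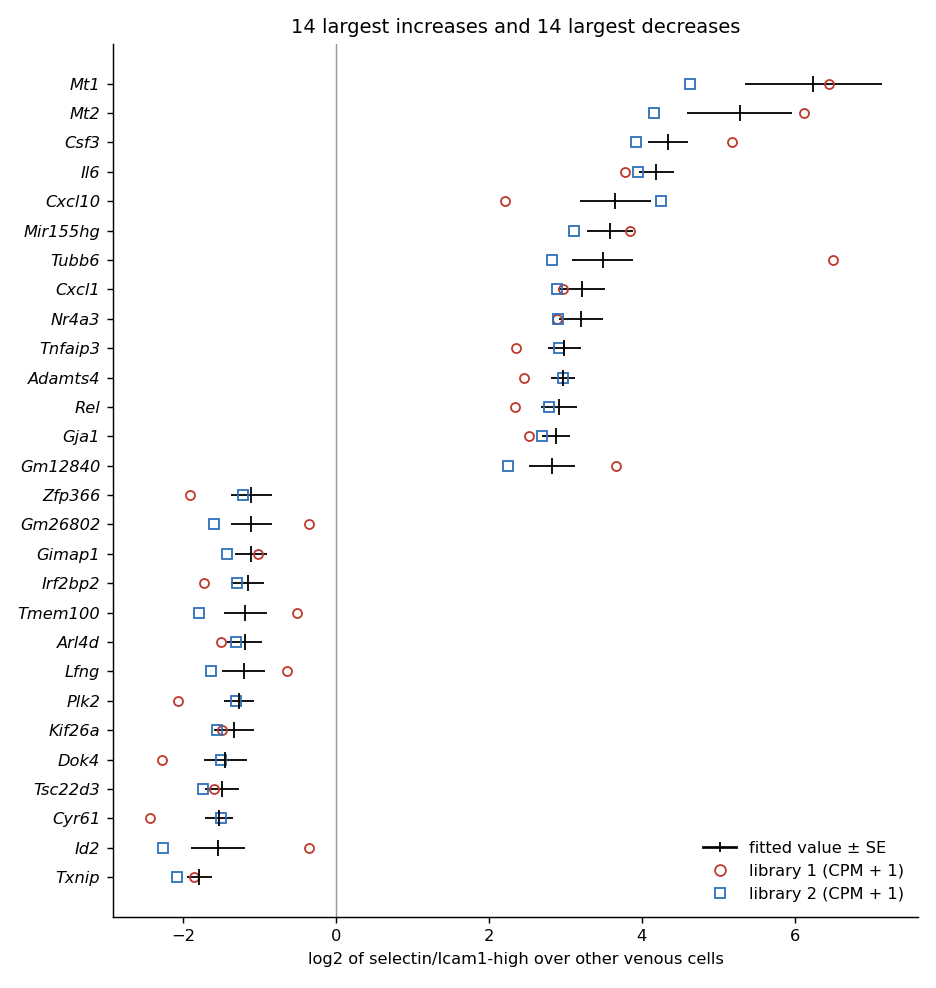
Log2 difference between selectin/Icam1-high and other venous cells for the 14 largest increases and 14 largest decreases; bars are fitted values ± SE, circles and squares the values of library 1 and library 2 from CPM + 1. Il6 is similar in both libraries, while Cxcl10, Tubb6 and Id2 differ widely between them.

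**Figure D4:**
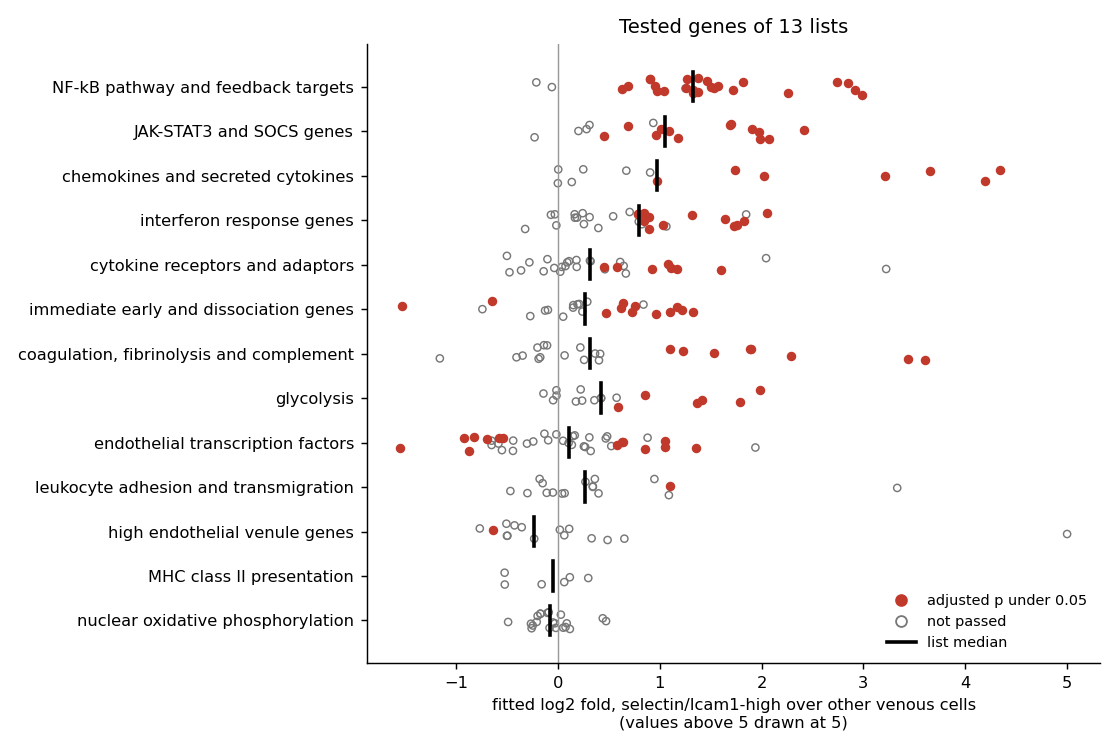
Fitted log2 difference of each tested gene of 13 lists; filled points passed an edgeR adjusted p of 0.05, open points did not, and the black bar is the list's median. The NF-kappaB list has 24 of 27 points filled. The oxidative phosphorylation and MHC class II lists have none, where 7.88% of all genes tested passed.

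Immediate early genes, which enzymatic tissue dissociation is also known to induce, moved in both directions. Of 24 tested 10 rose and 2 fell, beside 6.67 and 1.21% of all genes, and 8 and 4 without scaling. The fitted median log2 difference was 0.27, and the library medians from CPM + 1 were 0.20 and -0.03. Atf3 stood at 1615 and 1467 CPM against 747 and 672 CPM, a log2 difference of 1.33 ± 0.14 (edgeR adjusted p = 1.18e-11). Nr4a2 and Ier5 rose by 1.11 ± 0.19 and 0.97 ± 0.16, while Fos, Jun and Egr1, named after their values were seen, did not pass, at -0.12, -0.10 and 0.15. The part of dissociation in the results was not tested.

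Levels were also described along the balance of the 2 sides, which is built from the rule's own values. When venous cells were split by the share of selectin/Icam1 UMIs in the sum of both sides, Il6 stood in library 2 at 7.11, 57.2, 243 and 725 CPM from the lowest to the highest of 4 equal bins (69, 64, 130 and 169 cells). In library 1 it stood at 0, 51.9, 222 and 805 CPM (13, 25, 30 and 29 cells, the first bin thinly filled). Adamts4 stood at 201, 528, 2318 and 3316 CPM in library 2 and 79.1, 719, 2315 and 3409 CPM in library 1. Txnip went the other way, with 893, 608, 242 and 126 CPM in library 2 and 934, 430, 188 and 132 CPM in library 1. The largest absolute step of Adamts4 lay at the limit of the class, at the middle of the scale, in both libraries. Cxcl10 was highest in the third bin of library 2 (766 CPM, then 523 CPM) and in the fourth of library 1 (742 CPM). These are descriptions, with no test.

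**Figure D5:**
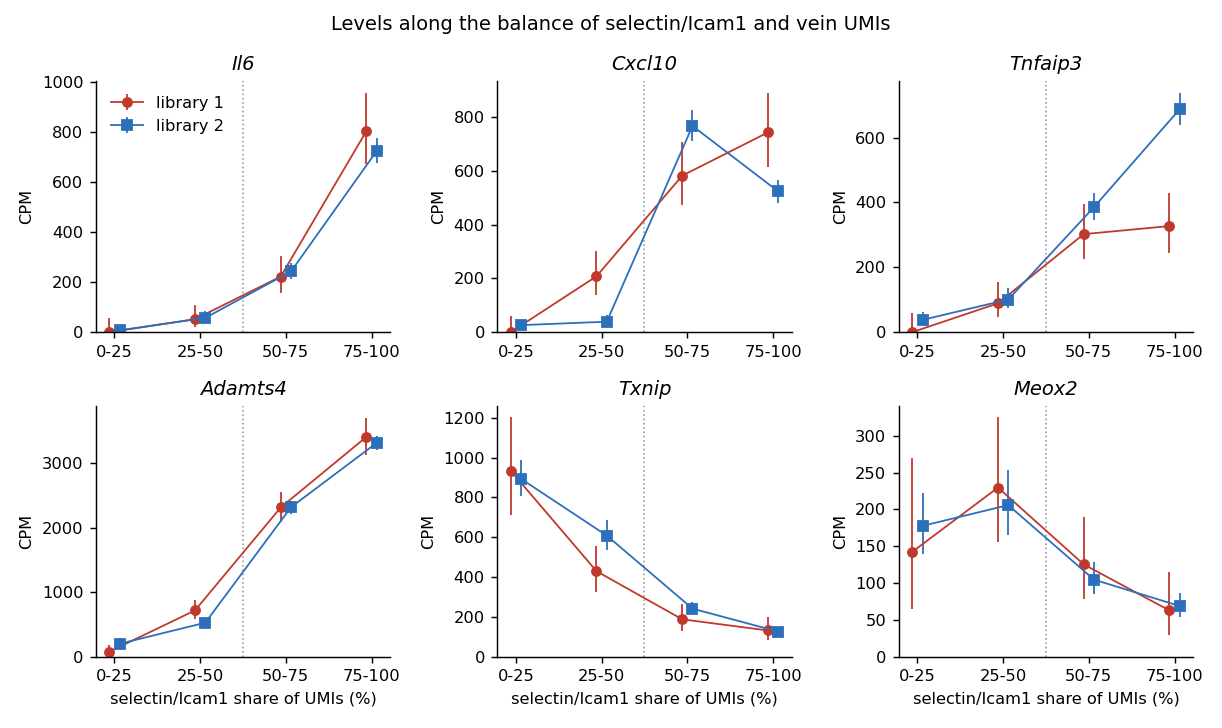
CPM of 6 genes in venous cells grouped by the share of selectin/Icam1 UMIs among the UMIs of both sides (in %), with 95% Poisson intervals; the dotted line is the limit of the class, and circles and squares are library 1 and library 2. Il6, Tnfaip3 and Adamts4 rise and Txnip declines across the scale in both libraries, with the largest absolute changes of Adamts4 and Txnip between neighbouring bins at the limit in library 2; Cxcl10 is not highest in the last bin of library 2.

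Compared with non-venous blood endothelium, the class differed more widely: 2577 of 9821 genes passed edgeR's test (26.2%), 1456 higher (14.8%) and 1121 lower (11.4%), and without scaling 969 and 1989. Without the cells carrying 3 or more UMIs of other cell types, 2611 passed. The venous gate genes chose these cells, so this comparison serves as context, and it shares the class's sums with the one above. F5, coagulation factor V, stood at 332 and 160 CPM in the class against 1.46 and 0.373 CPM, and Hdc at 724 and 499 CPM against 5.48 and 3.94 CPM. Of 12 capillary markers 7 were lower and 1 higher, and of 11 arterial markers 8 were lower and 1 higher. Among the named genes the largest decrease was that of Ssu2, at 0 and 3.45 CPM against 126 and 120 CPM. Other large decreases were Gja4 (connexin 37) at 5.98 and 9.36 CPM against 201 and 215 CPM, Sema3g at 2.99 and 11.8 CPM against 225 and 193 CPM, and Btnl9 at 0 and 4.93 CPM against 96.1 and 72.9 CPM. For the genes that set the class apart from other venous cells, the values differed in kind. Csf3 stood at 3.65 and 8.53 CPM in non-venous cells and Mir155hg at 2.92 and 2.99 CPM, both far below the class. Gja1 was present in 49.2 and 46.3% of thinned non-venous cells, 53.7 and 54.4% of the class and 25.7 and 14.5% of other venous cells. Before thinning the shares were 59.3 and 58.5%, 69.5 and 72.2%, and 42.1 and 23.7%.

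Scrublet, a doublet caller, marked 4 and 5 cells in all and no venous cell, too few to count as having worked. Of the class, 2 of 59 and 38 of 299 cells were among the highest 5% of doublet scores of their library, against 2 of 38 and 5 of 135 other venous cells. Without these 804 genes passed in the comparison of venous classes (665 higher, 139 lower), and the NF-kappaB list again gave 24 of 27.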

How the data were processed

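The analysis used 2 10x Genomics 3' libraries. The submitters' processing notes name bcl2fastq 2.2, Cell Ranger 3.1.0 and build mm10, but no gene annotation. Each deposited matrix holds raw UMI counts (31053 gene rows by barcodes).

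A cell needed 500 detected genes or more, with mitochondrial UMIs no higher than 15%. The 978 and 6067 cells left were classed by summed UMIs of 16 genes. Counts were summed per library and class (3 classes, 6 sums, 2 residual degrees of freedom; median prior degrees of freedom 58.8) and tested with edgeR 4.0.16 (quasi-likelihood, robust), TMM scaling and a minimum count of 10. P-values were adjusted by Benjamini-Hochberg over all genes tested. The library was a block, since the 3 classes within it were measured on 1 sample. The SE is the absolute log2 difference divided by the square root of F. CPM is relative to the class's UMIs, without TMM scaling. Genes of the rule were described only.

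Named genes were, per comparison, the 14 largest changes in each direction among passing genes whose direction held in each library and whose higher class reached 50 CPM in each, up to 4 members of each gene list, the genes of the rule, and markers of other cell types above 20 CPM in a venous class. Cells, lists and genes were chosen with earlier results of these data known. On simulated sums with 50 seeded genes per fold, 9 were recovered at 2-fold, 34 at 4-fold and 41 at 8-fold, and 0 at 1.5-fold. This was in the comparison of venous classes (9875 genes), with 0 false calls. These sums were drawn with the same dispersion for all genes and with no choice of cells by a rule. The 0 false calls thus cannot show errors that come from choosing the classes by their own UMIs. Shares of cells were also computed after thinning to 2000 UMIs. Intervals cover counting error only. Alternatives included DESeq2 1.42.0, other scalings, filters, thinning and cell sets. One, leaving out cells with 3 or more UMIs of 78 markers of other cell types, was chosen after seeing the data. Promoters are RefSeq windows of GRCm38.p6.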

Additional observations from a re-analysis of the deposited data

How the results depend on the processing

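Against other venous cells, 774 genes passed in the fit described, and the count was lower by over 1.5 times in 5 settings. It was 353 with DESeq2, 341 with no replicate block, 301 with each cell thinned to 2000 UMIs, 515 with the rule applied to thinned cells and tested on the UMIs not drawn, and 354 with equal numbers of cells per class. The last 3 use fewer UMIs or cells, and the causes of the lower counts were not tested. DESeq2 gave no adjusted p for 4193 genes in this comparison and for 0 genes against non-venous cells. In the other settings it lay between 597 (cells with a UMI of another type's defining markers left out) and 816. Against non-venous cells the count was 2577, and 1249 with DESeq2, 1517 thinned and 1542 with equal numbers of cells. Of 94 named genes that passed in the first comparison, 30 no longer passed with equal numbers of cells, 25 with no replicate block, 17 with DESeq2 and 17 thinned, and at most 15 in any other setting. None of the 94 changed sign in these settings. Slc2a1, at 0.86 on the log2 scale, was -0.28 in library 1 alone and 0.93 in library 2 alone. Icosl against non-venous cells was -0.45 and 2.17. The share of venous cells in the class was 49.3% without Icam1 on the selectin side, and 60.8 to 68.9% with either library left out. Leaving out a library gives no test over genes, as no residual degrees of freedom remain. In simulated sums none of the 49 tested genes seeded at 1.5-fold was recovered. The effect of depth on this was not tested.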
